A study of Mus musculus with 6 samples.

Results

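Solute carriers are the membrane proteins that move amino acids, sugars, metals, ions, vitamins and nucleotide sugars across the plasma membrane and the membranes of organelles. The genes described here are those of the mouse table whose symbol is Slc followed by a digit and whose mean FPKM (fragment counts scaled to gene length and to library size) over 6 libraries was at least 2. The mitochondrial Slc25a family and 10 carriers of amino acids, glucose, lactate and iron (Slc7a1, Slc7a2, Slc7a5, Slc7a11, Slc3a2, Slc2a1, Slc16a3, Slc11a1, Slc11a2 and Slc40a1) were left out. Of 16665 genes in the table, 250 had an Slc symbol, 51 of these were excluded by name or family, 96 lay under the FPKM threshold and 103 were kept. These genes were selected on their mean FPKM over both groups, so levels are given as a description, while the difference between the groups was not part of the choice. Just inside the threshold lay the magnesium carrier homologue Slc41a3 (mean 2.01 FPKM) and Slc9a3r1 (2.09 FPKM). Just outside lay the carnitine transporter Slc22a5 (1.84 FPKM) and Slc35a5 (1.93 FPKM).

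The cells were RAW 264.7, an established line of mouse monocyte-macrophage leukaemia cells. Per the labels, 3 samples were transfected with a miR-125b mimic (genotype label miR-125b overexpression) and 3 with a negative control (genotype label miR-125b WT). All 6 were thus transfected cells of 1 line, and no untransfected sample, time point or dose was given in the labels. The series title names atherosclerosis and the lytic cell death pyroptosis, and the comparison asks what raised miR-125b does to macrophage RNA.

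The mature microRNA is shown because its seed, bases 2 to 8 in capitals, sets which transcripts can pair with it (RefSeq, GRCm38.p6). The labels do not say which arm the mimic holds.
mmu-miR-125b-5p: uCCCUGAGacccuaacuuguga

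As background, carriers differ in place as well as in cargo. Zinc, for example, enters the cytosol through the ZIP importers (Slc39a) and leaves it, either out of the cell or into vesicles and the Golgi, through the ZnT exporters (Slc30a). The Slc35 family feeds the Golgi and endoplasmic reticulum (ER) with the activated sugars used in glycosylation. Macrophages take up and digest large amounts of material, so lysosomal carriers that return amino acids, sialic acid and haem to the cytosol are part of their work.

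Recovered depth was 14.44 to 16.81 M fragments per library, with 15141 to 15470 genes above 0 in 5 libraries and 13266 in negative control 3. Of 10 macrophage markers, 9 had a mean of at least 1 FPKM, and their summed level was 7162 to 8635 FPKM in the controls and 6407 to 6676 FPKM with the mimic. T cell, B cell, fibroblast, epithelial and endothelial markers (3 of each) were all under 1 FPKM. Negative control 3 stood apart from the other controls. In 60 of the 103 members (58.3%) it lay nearer to the mean of the mimic libraries than to that of the other 2 controls, against 65.2% of all 10166 tested genes. Its level over the mean of the other 2 controls ran from 0.194 for the GDP-fucose transporter Slc35c1 to 2.56 for Slc5a3, with a median of 0.934. Values without this library are given below for the groups and genes whose sign turned or whose difference moved by over 1.5 times when it was left out. Without it the median difference was 0.033 over the members and −0.0064 over all tested genes. The labels do not state whether the 3 samples of a group were grown apart, so the spread behind each p-value may be technical only.

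The most abundant members were carriers of osmolytes and glutamine. Slc5a3, the sodium-myo-inositol cotransporter that loads cells with an osmolyte, had the highest mean (86.7 FPKM). Slc38a2, the sodium-coupled glutamine and alanine transporter SNAT2, followed at 78.7 FPKM, and Slc6a12, which carries betaine and GABA, at 73.8 FPKM. The ranges of these 3 over the 6 libraries overlapped (51.6 to 134, 67.1 to 97.2 and 63.3 to 84.4 FPKM), so their order is not fixed, while Slc6a12 stayed above the fourth gene in every library. That gene was the ascorbate transporter Slc23a2 (48.6 FPKM), and the choline transporter-like Slc44a1 (43.7), the taurine transporter Slc6a6 (43.4), the lactate and pyruvate transporter Slc16a1 (41.1) and the amino acid transporter Slc36a4 (38.1 FPKM) came next with overlapping ranges. In all, 20 members lay at 20 to 100 FPKM, 47 at 5 to 20 and 36 at 2 to 5.

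No solute carrier passed the test between mimic and control. With limma on log2(FPKM + 1), 0 of 103 members had an adjusted p under 0.05 (the background is 0.0% higher and 0.0% lower over 10166 tested genes), and the smallest adjusted p of a member was 0.332. At an unadjusted p under 0.05, 9 members were higher with the mimic (8.74%, against 7.96% of all tested genes) and 0 were lower (against 5.26%). A voom fit of the fragment counts also gave 0 at an adjusted p under 0.05, and at an unadjusted p under 0.05 it gave 11 higher (10.7%, against 8.94%) and 0 lower (against 4.78%). After quantile normalisation 0 were called, and at an unadjusted p under 0.05 the counts were 9 higher (8.74%, against 6.94%) and 3 lower (2.91%, against 6.67%). In the fit with the replicate number as a block, 0 were called, and at an unadjusted p under 0.05 the counts were 10 higher (9.71%, against 9.27%) and 4 lower (3.88%, against 7.28%). With the block Slc30a5 no longer passed that unadjusted threshold, while Slc6a6 and Slc38a6 joined the higher members and Slc6a13, Slc4a2, Slc35a2 and Slc35c2 formed the lower ones. Without the block, the count of 9 went to 0 when mimic 1 or mimic 2 was left out, to 1 without control 2, to 2 without control 1, to 19 without mimic 3 and to 27 without control 3. The share of higher members was near that of all genes in the limma, voom and block fits. The median log2 fold change, mimic minus control on the log2(FPKM + 1) scale, was 0.09 over the members and 0.04 over all tested genes, with 62 members above 0 and 41 below (60.2% above, against 56.3% of all genes). In 20 members all 3 mimic values lay above all 3 control values (19.4%, against 12.6% of all genes), and in 7 they lay below (6.8%, against 7.49%). These are RNA levels of bulk cultures, in which fewer expressing cells and less RNA per cell cannot be told apart.

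**Figure D1:**
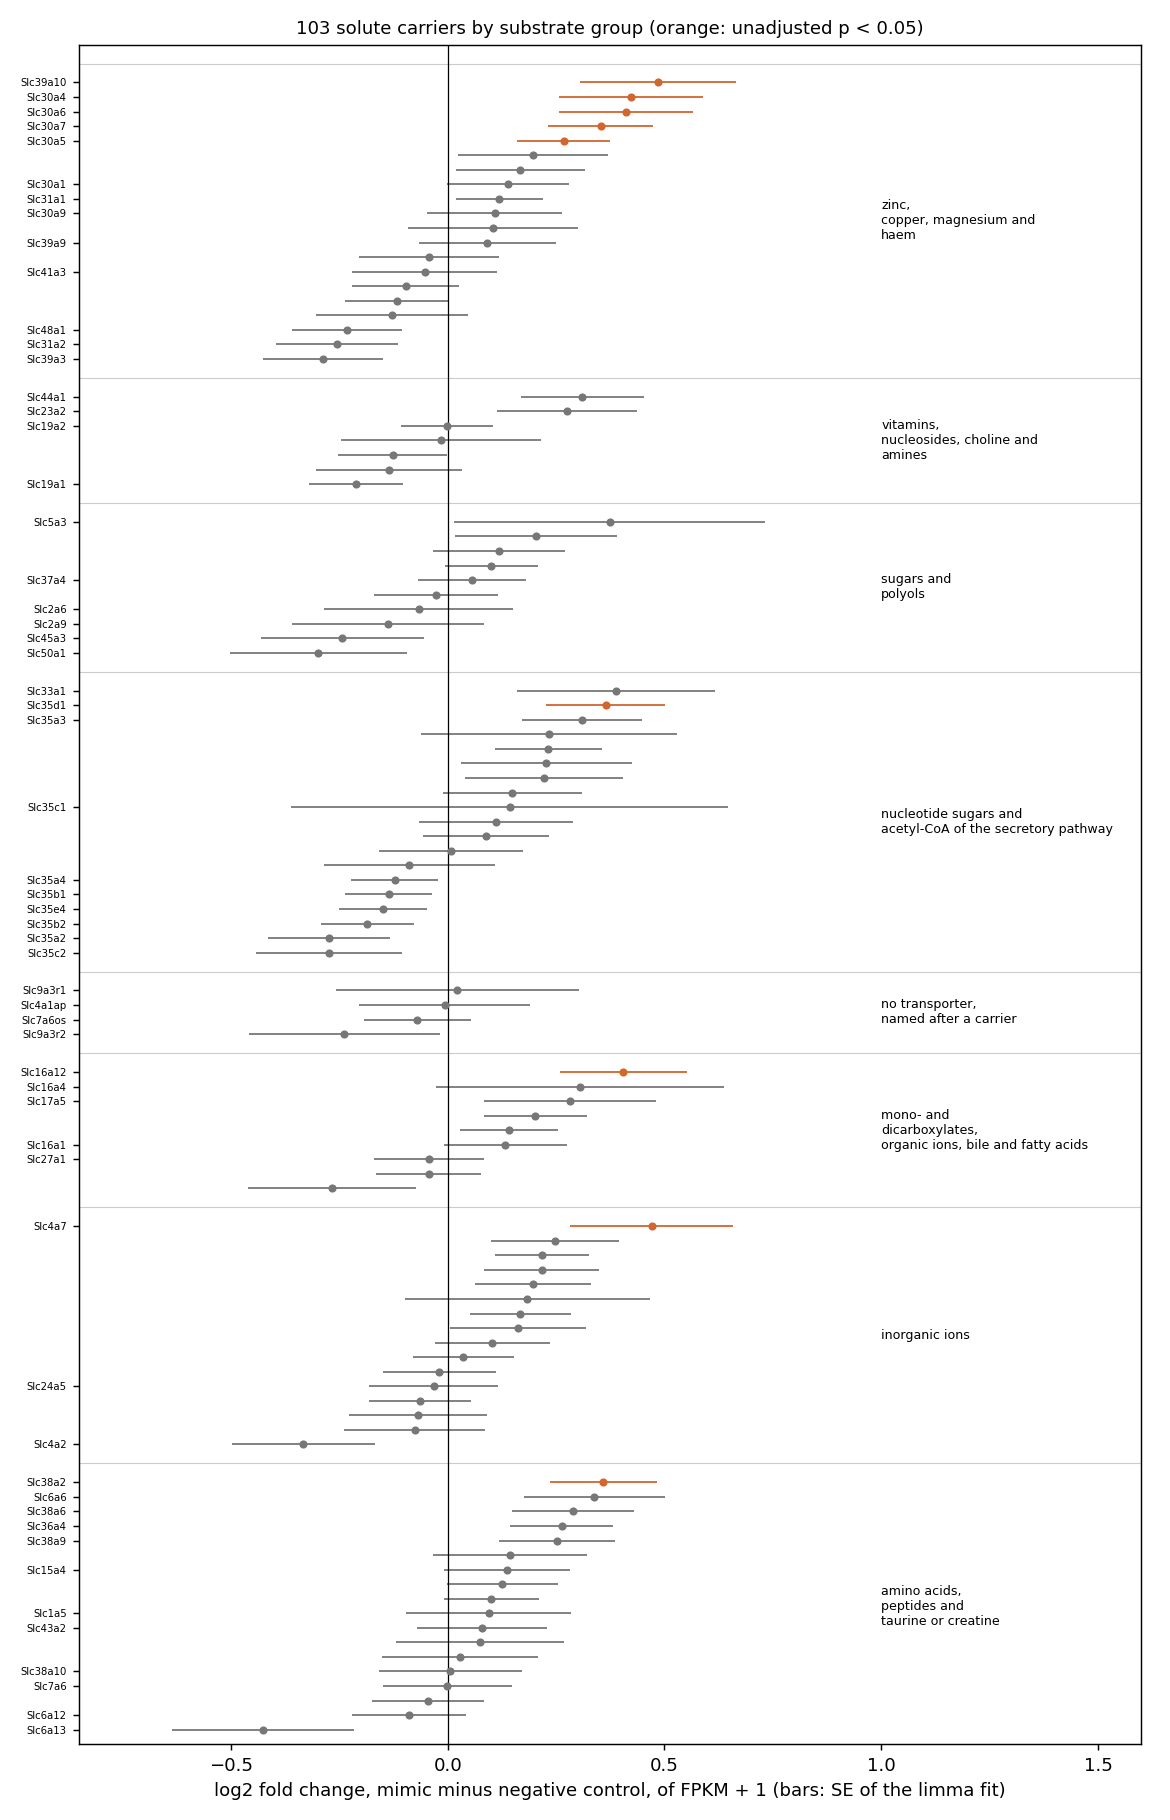
Log2 fold change (x axis, mimic minus negative control, on FPKM + 1) of each of the 103 solute carriers, sorted within substrate groups on the y axis, with names for members described in the text. Points are limma estimates, bars their SE over 3 libraries a group, and the 9 orange points have an unadjusted p under 0.05. Those 9 lie between 0.27 and 0.49, and 5 of them are zinc carriers.

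Zinc carriers held 5 of the 9 members that were higher at an unadjusted p under 0.05. Among them were 4 of the 6 measured ZnT exporters, Slc30a4, Slc30a5, Slc30a6 and Slc30a7, and all 6 exporters had a fold change above 0 (median 0.31). The share of all tested genes at this threshold and direction was 7.96%, and 3 of the 6 exporters reached it with the replicate block, 2 after quantile normalisation or median centring. None passed after adjustment (limma adjusted p = 0.332 to 0.363 for the 4). Slc30a7 (ENSMUSG00000054414), which moves zinc into the early secretory pathway, read 17.8, 18.3 and 18.5 FPKM in controls 1 to 3 and 25.5, 24.9 and 20.5 in mimics 1 to 3. Its means were 18.2 ± 0.370 and 23.6 ± 2.77 FPKM (SD, n = 3), a log2 fold change of 0.35 (SE 0.12). The controls were tight and every mimic library lay above them, with mimic 3 the closest. Slc30a4, a transporter that loads zinc into endosomal and lysosomal vesicles, read 18.3, 17.3 and 17.8 FPKM in the controls and 26.1, 28.9 and 18.7 with the mimic. The difference of 0.42 (SE 0.17) came mainly from mimics 1 and 2, since mimic 3 lay just above the highest control. Slc30a5 and Slc30a6 form a complex that supplies zinc to enzymes of the secretory pathway. Slc30a5 read 17.9, 16.7 and 18.2 FPKM against 21.4, 22.7 and 20.1 (0.27, SE 0.11). Slc30a6 read 2.40, 2.42 and 3.12 FPKM against 3.76, 4.51 and 3.30 (0.41, SE 0.16), and here too the groups did not overlap.

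The other 2 exporters differed less with all libraries. Slc30a1, the plasma membrane exporter that cells induce when zinc is high, stood at 6.75 ± 0.939 and 7.52 ± 0.818 FPKM (SD, n = 3; 0.14, SE 0.14; 0.23 without control 3). Slc30a9, which works in mitochondria, stood at 0.11 (SE 0.16; 0.26 without control 3). Among the 8 ZIP importers 4 were above 0 and 4 below, with a median of −0.0026, and once the length and GC trend was removed 6 were above 0 (median 0.030). Slc39a10 had the highest fold change of all 103 members, with 21.2, 20.7 and 15.9 FPKM in the controls and 30.2, 30.8 and 21.5 with the mimic (0.49, SE 0.18, limma adjusted p = 0.344). In both groups the third library was the lowest, and the lowest mimic lay just above the highest control. The ZIP importer Slc39a3 pointed the other way, from 2.89, 2.95 and 2.71 to 1.86, 2.51 and 2.12 FPKM (−0.29, SE 0.14, limma adjusted p = 0.417), again without overlap. The copper importer Slc31a1 (0.12, SE 0.10), the lysosomal copper carrier Slc31a2 (−0.26, SE 0.14) and the haem transporter Slc48a1 (−0.23, SE 0.13) did not pass.

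When the dependence on GC content and transcript length was taken out, the median of the 6 exporters was 0.058 and Slc30a9 lay below 0 (−0.15). Slc30a6 kept most of its difference (0.34, from 0.41), while Slc30a7 stood at 0.09, Slc30a4 at 0.20 and Slc30a5 at 0.026. With all 6 libraries as deposited, the tested genes of the zinc response lay on the other side of 0 from the exporters. For Mt1 and Mt2 this depended on control 3. All 3 tested ones were below 0 and 0 passed: the metallothionein Mt1, which binds zinc in the cytosol, read 182, 208 and 318 FPKM in the controls and 180, 214 and 229 with the mimic (−0.15, SE 0.22). The third control was far above all other libraries for Mt1, and the sign turned without it (0.085). The same held for Mt2 (−0.23, SE 0.45; 0.31 without it), while the zinc-sensing factor Mtf1 stood at −0.04 (SE 0.16; −0.11 without it). Mt1, Mt2 and Mtf1 stood at 0.0078, −0.077 and −0.14 once the length and GC trend was removed.

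**Figure D2:**
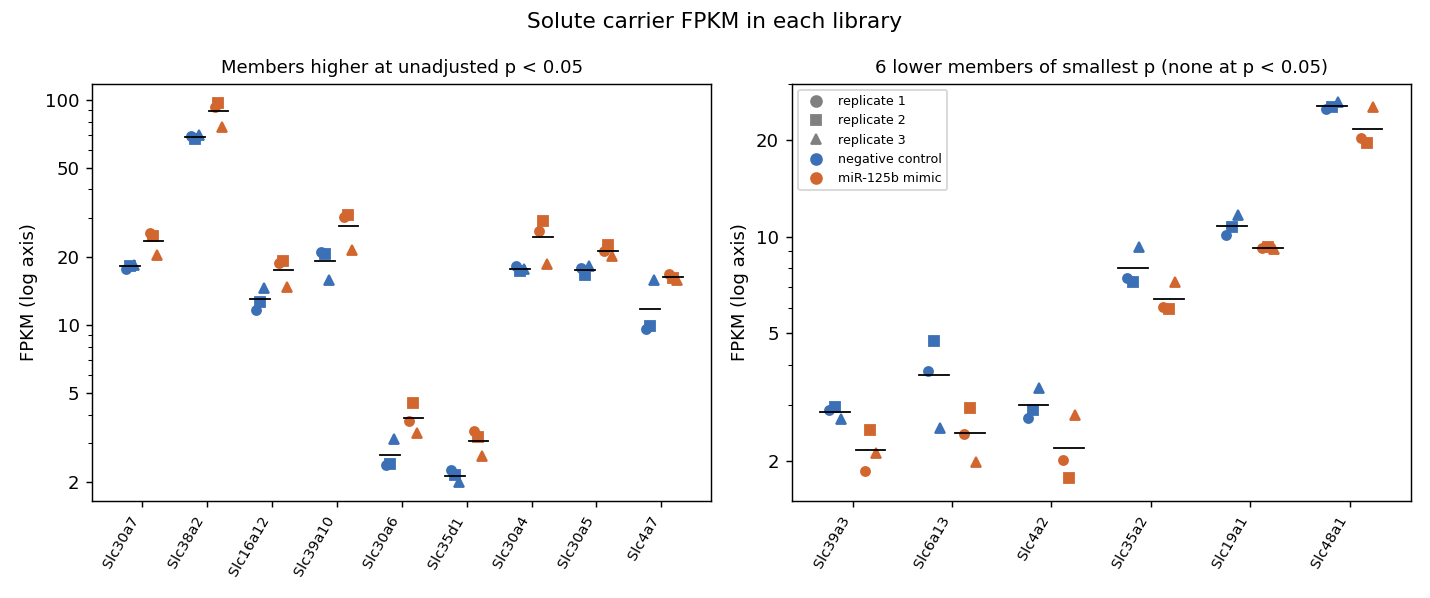
FPKM (log axis) in each library for the 9 members higher at an unadjusted p under 0.05 (left) and the 6 lower members of smallest p (right), with negative controls in blue, mimics in orange, marker shape for the replicate number and a line at each mean of 3. In 8 of the 9 on the left the groups do not overlap, and control 3 of Slc4a7 (15.8 FPKM) sits at the level of the mimics.

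The promoters of the zinc genes were also searched for the core of a regulatory element. The metal response element, through which MTF1 acts, has a core that was searched as TGCACNC and TGCGCNC on both strands, in the 300 bases from 250 before to 50 after each RefSeq start site. Of the 12 zinc-family members with a listed promoter, 6 held at least 1 match in the first one listed (50%, against 25.7% of all 32851 listed promoters). Matches were found in the exporters Slc30a1 (2), Slc30a4 (3) and Slc30a5 (1), which were above 0 with the mimic. The importers Slc39a3, Slc39a11 and Slc39a13 held 1 in each listed window and were below 0 (−0.29, −0.12 and −0.13). Without control 3 these importers stood at −0.31, −0.036 and −0.27. They stood at −0.11, 0.0063 and 0.026 once the length and GC trend was removed. The exporters Slc30a1, Slc30a4 and Slc30a5 then stood at 0.029, 0.20 and 0.026, so the opposed directions did not hold under that setting. No match was found in the windows of Slc30a6, Slc30a7, Slc30a9, Slc39a1, Slc39a9 and Slc39a10. So of the 5 zinc carriers at an unadjusted p under 0.05, 2 had a match and 3 did not. The first match of 2 exporters and of Mt1, which serves as the reference case, is shown with the core in capitals, read on the strand of the gene (GRCm38.p6). The windows lie at chr1:191906727-191906755 (plus strand), chr2:122702874-122702902 (minus strand) and chr8:94179055-94179083 (plus strand).
Slc30a1: acgggggttccGAGTGCAaagcaaagttt
Slc30a4: ccgggggctcaGAGCGCAcaagacctcag
Mt1: cggtcccgctgTGCACACtggcgctccag

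Carriers of amino acids and related solutes gave 14 of 18 members above 0, with 1 higher at an unadjusted p under 0.05 (against 7.96% of all tested genes) and a median of 0.098. Without control 3 only 8 of the 18 were above 0 and the median was −0.019. That one was Slc38a2, a gene that cells induce on amino acid shortage. It read 69.2, 67.1 and 69.7 FPKM in the controls and 93.3, 97.2 and 76.0 with the mimic, or 68.6 ± 1.40 and 88.8 ± 11.3 (SD, n = 3; 0.36, SE 0.12, limma adjusted p = 0.334). Mimic 3 was again the nearest to the controls, and the difference of Slc38a2 was 0.15 once the length and GC trend was removed. All 6 measured Slc38 genes were above 0 with the 6 libraries as deposited (median 0.19), but 5 were after quantile normalisation or median centring, 4 without control 3 (median 0.12) and 4 once the length and GC trend was removed (median 0.097). Slc38a10 went from 0.0061 to −0.16 without control 3. The lysosomal arginine sensor Slc38a9 stood at 3.51 ± 0.465 and 4.35 ± 0.286 FPKM (0.25, SE 0.13), and its difference was −0.02 after removal of the length and GC trend. Slc6a6, the taurine transporter, read 44.7, 40.9 and 29.8 FPKM in the controls and 50.6, 48.5 and 45.7 with the mimic (0.34, SE 0.16). Here control 3 was the lowest library, and without it the difference was 0.17. Slc6a13, a GABA transporter of the same family, had the lowest fold change of the 103, with 3.82, 4.75 and 2.53 FPKM against 2.43, 2.92 and 1.99 (−0.43, SE 0.21, limma adjusted p = 0.428). Its groups overlapped through control 3. Slc6a12, its neighbour in family and far more abundant, stood at −0.09 (SE 0.13; −0.16 without control 3). The glutamine transporter Slc1a5 stood at 0.09 (SE 0.19), at −0.10 without control 3 and at 0.23 once the length and GC trend was removed. The light chain Slc7a6 stood at −0.0013 (SE 0.15) and at −0.13 without control 3.

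Lysosomal carriers are of interest in a phagocyte. Of the 13 members assigned to lysosomes or endosomes, 10 were above 0 and 3 below (median 0.14). Among all tested genes 56.3% were above 0. The 13 include carriers of metals, sugars and ions as well as of amino acids. Slc36a4 read 33.9, 32.1 and 37.7 FPKM in the controls and 41.5, 45.4 and 38.1 with the mimic (0.26, SE 0.12, limma adjusted p = 0.395), with control 3 just under mimic 3. Its difference was 0.062 once the length and GC trend was removed. Slc15a4, the histidine and peptide transporter required for endosomal Toll-like receptor signalling, read 28.2, 26.6 and 32.9 FPKM against 29.6, 29.3 and 38.1 (0.14, SE 0.15; 0.22 without control 3). The third library was the highest in both groups. Sialin (Slc17a5), which exports sialic acid from lysosomes, stood at 14.2 ± 2.17 and 17.7 ± 4.10 FPKM (SD, n = 3; 0.28, SE 0.20; 0.16 without control 3). By place, the 42 plasma membrane members had a median of 0.10 and the 20 of ER and Golgi 0.11. Without control 3 these medians were 0.013 and 0.086. Another 22 members were given no place.

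Carriers of the secretory pathway had members on both sides of 0. Of 19 members of Slc35 and Slc33, 12 were above 0 and 7 below (median 0.11), 2 did not overlap upward (against 12.6% of all tested genes) and 5 did not overlap downward (against 7.49%). Without control 3, 10 of the 19 were above 0 (median 0.036). Slc35d1, which brings UDP-glucuronic acid and UDP-N-acetylgalactosamine into the ER, read 2.27, 2.15 and 2.00 FPKM in the controls and 3.38, 3.16 and 2.61 with the mimic (0.36, SE 0.14, limma adjusted p = 0.351). Its difference was 0.16 after removal of the length and GC trend. Slc35a3, the UDP-N-acetylglucosamine transporter of the Golgi, stood at 9.92 ± 1.24 and 12.5 ± 1.42 FPKM (0.31, SE 0.14), and at −0.04 once the length and GC trend was removed. Its relative Slc35a2 brings in UDP-galactose and pointed down, from 7.42, 7.23 and 9.32 to 6.06, 5.97 and 7.22 FPKM (−0.27, SE 0.14; −0.17 without control 3). Each mimic of Slc35a2 lay below the control of the same number, and the highest mimic lay just under the lowest control. The 3 most abundant genes of the group were lower without overlap but by little: Slc35b1, which supplies ATP to the ER, went from 29.4 ± 1.35 to 26.7 ± 0.854 FPKM (−0.14, SE 0.10), Slc35e4 from 20.5 ± 1.09 to 18.4 ± 0.0381 (−0.15, SE 0.10), and the sulfate donor transporter Slc35b2 from 19.7 ± 1.57 to 17.2 ± 0.137 (−0.19, SE 0.11; each SD over n = 3). With the length and GC trend removed, Slc35b1 stood at −0.040, Slc35e4 at 0.075 and Slc35b2 at 0.029. Slc35c1, the GDP-fucose transporter, varied widely: 7.40, 6.07 and 1.31 FPKM in the controls and 5.96, 6.23 and 2.66 with the mimic. The third library was the lowest in both groups, and the fold change was 0.14 (SE 0.50) with it and −0.44 without control 3.

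Carriers of carboxylates and related solutes (9 members) and of ions (16 members) each gave 1 member higher at an unadjusted p under 0.05. The share of all tested genes at this threshold and direction was 7.96%. Slc16a12, a creatine transporter of the monocarboxylate family, read 11.7, 12.7 and 14.66 FPKM in the controls and 18.9, 19.2 and 14.70 with the mimic (0.41, SE 0.15, limma adjusted p = 0.344). Control 3 and mimic 3 were almost equal, so the groups were barely separated. All 5 Slc16 members were above 0 (median 0.20), and 4 were once the length and GC trend was removed (Slc16a1 at −0.025); Slc16a1, the main lactate and pyruvate transporter here, stood at 39.1 ± 2.73 and 43.2 ± 6.57 FPKM (0.13, SE 0.14). Slc27a1, a fatty acid transport protein, stood at 32.2 ± 3.78 and 31.2 ± 2.36 FPKM (−0.04, SE 0.13; −0.13 without control 3). Among ion carriers, 10 of 16 were above 0 (median 0.13). The sodium-bicarbonate cotransporter Slc4a7, which macrophages use to control phagosome pH, read 9.62, 9.86 and 15.8 FPKM in the controls and 16.8, 16.2 and 15.8 with the mimic (0.47, SE 0.19, limma adjusted p = 0.364). Control 3 alone was at the level of the mimics. The difference of Slc4a7 was 0.14 once the length and GC trend was removed. The chloride-bicarbonate exchanger Slc4a2 pointed down, from 2.73, 2.88 and 3.39 to 2.02, 1.77 and 2.79 FPKM (−0.33, SE 0.17, limma adjusted p = 0.429). Of its exons, 13.7% are shared with Fastk on the other strand, which makes its value uncertain because the strand setting is unknown.

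Sugar and vitamin carriers showed no common direction. Of 10 sugar and polyol carriers 5 were above 0 and 5 below (median 0.015), and of 7 carriers of vitamins, nucleosides and choline 2 were above and 5 below (median −0.016). Without control 3 the medians were −0.077 and −0.13, and the sugar carriers also had a median below 0 after quantile normalisation (−0.026) and median centring (−0.025). Slc5a3, the most abundant member, read 51.6, 52.8 and 134 FPKM in the controls and 80.8, 88.4 and 113 with the mimic. Control 3 was the highest of all 6 libraries, so the groups overlapped and the fold change of 0.37 had an SE of 0.36. The Golgi sugar transporter Slc50a1 read 33.4, 29.1 and 18.9 FPKM against 22.7, 19.9 and 21.3 (−0.30, SE 0.20), again with control 3 on the side of the mimics. Slc44a1 read 35.8, 34.5 and 47.1 FPKM against 46.2, 50.3 and 48.4 (0.31, SE 0.14), and Slc23a2 45.5, 45.8 and 39.5 against 59.8, 59.1 and 41.8 (0.28, SE 0.16). Slc5a3, Slc50a1, Slc44a1 and Slc23a2 stood at 0.076, −0.13, 0.068 and 0.16 once the length and GC trend was removed. Slc19a1, the reduced folate carrier, was lower without overlap, from 10.1, 10.7 and 11.7 to 9.21, 9.27 and 9.14 FPKM (−0.21, SE 0.11, limma adjusted p = 0.443). Its paralogue Slc19a2, which carries thiamine, stood at 20.5 ± 1.21 and 20.5 ± 1.00 FPKM (−0.0014, SE 0.11; 0.043 without control 3).

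Leaving out negative control 3 gave calls. By limma 14 of the 103 then passed an adjusted p of 0.05, 9 higher (8.74%, against 11.6% of all tested genes) and 5 lower (4.85%, against 12.2%). Highest among them was Slc5a3 (0.82, limma adjusted p = 0.0110), followed by Slc16a4 (0.69, adjusted p = 0.0317), Slc4a7 (0.69, adjusted p = 0.00539) and the acetyl-CoA transporter Slc33a1 (0.65, adjusted p = 0.0141). The other higher ones were Slc30a6, Slc16a12, Slc44a1, Slc35a3 and Slc36a4 (0.33 to 0.50). Lower were Slc6a13 (−0.62, adjusted p = 0.0335), Slc50a1 (−0.53, adjusted p = 0.0131), Slc9a3r2, Slc45a3 and the urate transporter Slc2a9 (−0.39 to −0.49 for these 3). In 12 of the 14 the control left out lay nearer to the mimic mean than to the other controls (85.7%, against 65.2% of all tested genes). In 3 of the 14 the groups did not overlap with all 6 libraries (against 12.6% upward and 7.49% downward of all tested genes). The 14 were picked by the fit without that control, so these counts depend on the choice and are a description only. Once the GC and length trend was removed as well, 0 of the 14 passed (limma, smallest adjusted p of these 0.0746; against 1.03% called higher and 2.81% called lower over all tested genes). Leaving out control 3 gave, at an unadjusted p under 0.05, 19 higher (18.4%, against 18.8%) and 8 lower (7.77%, against 20.4%), and with the trend also removed 19 higher (18.4%, against 11.4%) and 2 lower (1.94%, against 13.1%). Leaving out mimic 3 gave 0 calls, and at an unadjusted p under 0.05 it gave 17 higher (16.5%, against 9.9%) and 2 lower (1.94%, against 4.48%). Weighting each library by its fit to its group, which gave control 3 a weight of 0.0908, called 29 higher (28.2%, against 25.3%) and 14 lower (13.6%, against 22.0%), and 34 (33.0%, against 29.0%) and 18 (17.5%, against 25.8%) at an unadjusted p under 0.05.

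**Figure D3:**
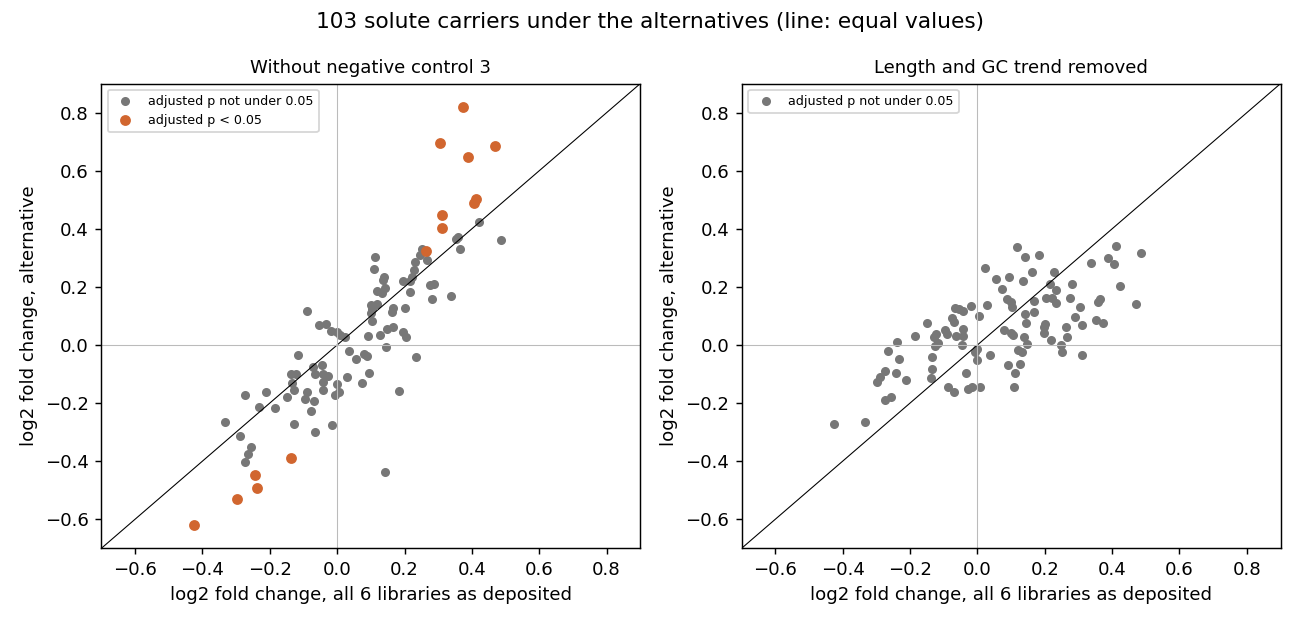
Log2 fold change of the 103 members with all 6 libraries as deposited (x axis) against the value without negative control 3 (left y axis) or after removal of the length and GC trend (right y axis), with the line of equal values and orange for an adjusted p under 0.05. The 14 orange points on the left lie farther from 0 than the line at both ends, and on the right no point is called and 71 of the 103 lie nearer to 0.

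The members that were higher share a low GC content, which the selection did not use, and most of them have long transcripts. The 9 at an unadjusted p under 0.05 had a median exon length of 7294 bases and a median GC content of 44.1%, against 4687 bases and 52% in the other 94 members, although Slc30a6 (3075 bases) and Slc16a12 (4170 bases) lay under that second median. Of the 25 members with a GC content under 45%, 23 were above 0 (92%, against 84.4% of the 2905 tested genes in that range) and 12 did not overlap upward (48%, against 22.2%), with medians of 0.31 and 0.21. Of the 30 with 55% or more, 10 were above 0 (33.3%, against 23.8% of 2022) and 0 did not overlap upward (against 1.24%), with medians of −0.066 and −0.16. All genes thus showed the same order. Across the 103 members Spearman's rho between fold change and GC content was −0.691, and with exon length 0.518. Across all 10128 tested genes with an annotation it was −0.549 and 0.383; genes are not independent replicates and all points share the same 6 libraries. After removal of this trend, 0 members were called, 0 were lower at an unadjusted p under 0.05 (against 4.96% of all tested genes) and 4 were higher (3.88%, against 4.73%): Slc6a6 (0.28), Slc30a6 (0.34), Slc16a12 (0.28) and Slc37a4, the glucose-6-phosphate translocase of the ER (0.23; 0.057 as deposited and −0.047 without control 3).

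**Figure D4:**
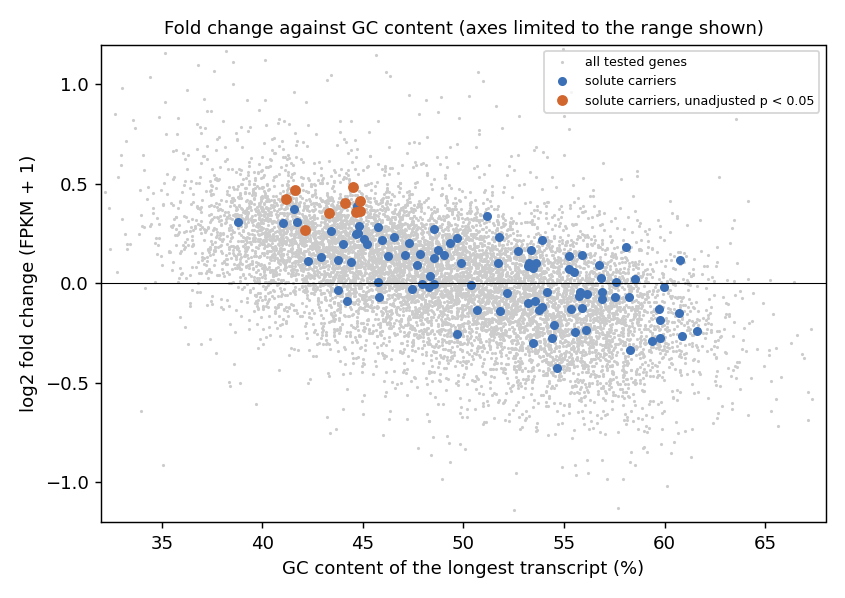
Log2 fold change (y axis) against GC content of the longest transcript (x axis, percent) for all tested genes (grey), the members (blue) and the 9 members higher at an unadjusted p under 0.05 (orange). The cloud slopes downward for all genes and members alike, and the 9 lie between 41.2% and 44.8% GC.

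Members whose transcript can pair with the miR-125b-5p seed had a median difference near 0. The sites searched in the longest annotated 3′ untranslated region were CTCAGGGA (8mer), CTCAGGG (7mer-m8, without the 8mer) and TCAGGGA (7mer-A1), and 29 of the 103 members held one (28.2%, against 22.2% of 9312 tested genes). Of the 29, 15 were above 0 and 14 below (median 0.0061), and of the 74 without a site 47 were above and 27 below (median 0.11). Without control 3 more of the 29 were below 0 than above (median −0.038). With the length and GC trend removed more were above than below (median 0.029). Among all tested genes the medians were 0.071 with a site and 0.021 without, with all 6 libraries as deposited. The genes with a site also had longer 3′ untranslated regions (median 2207 bases, against 915 without). Fold change rose with this length (Spearman's rho 0.293 over all tested genes with an annotation and 0.556 over the members). The share of length in the difference between these medians was not tested. The 8mer was found in 7 members, 3 above 0 and 4 below (median −0.067), and 0 of them reached an unadjusted p under 0.05. Their sites are shown because they match the whole seed of the 5p arm, the one searched here; capitals mark the 8mer, and the sequence is that of the transcript in GENCODE M21 (GRCm38). The site of Slc35a4 is not printed.
Slc16a1: tagagtttggcCTCAGGGAagccaataaag
Slc2a6: gggcctacagcCTCAGGGAggaa
Slc43a2: cactccacattCTCAGGGAaagctcctgcc
Slc2a9: tgcattcccggCTCAGGGAaccataccatc
Slc39a9: ttaaccctattCTCAGGGAagatggaattt
Slc39a3: atcaaagtgacCTCAGGGAccctgccatgt

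The 8mer of Slc16a1 lies at chr3:104656884-104656891 (plus strand), base 1162 of 2740 of the 3′ untranslated region, and this abundant gene was not lower (0.13, SE 0.14). That of Slc39a3 lies at chr10:81030671-81030678 (minus strand), base 279 of 2419, and this zinc importer had the lowest fold change of the 7 (−0.29, SE 0.14, limma adjusted p = 0.417). The other 5 stood between −0.14 and 0.092: Slc2a9, a urate transporter (−0.14, SE 0.22; −0.39 without control 3), Slc35a4 (−0.12, SE 0.10), the lysosomal hexose transporter Slc2a6 (−0.067, SE 0.22; −0.30 without control 3), the neutral amino acid transporter Slc43a2 (0.079, SE 0.15; −0.032 without control 3) and the Golgi zinc carrier Slc39a9 (0.092, SE 0.16; 0.031 without control 3). Slc39a9 shares 4.5% of its exon bases with Erh on the other strand.

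Genes that power or assist carriers gave no call either. Of 6 tested genes of the sodium gradient and its control, 3 were above 0 and 3 below, and 0 passed. At an unadjusted p under 0.05, 1 was higher (against 7.96% of all tested genes). That was Wnk1, the kinase that controls cation-chloride cotransporters, at 10.8 ± 0.412 and 13.7 ± 0.363 FPKM (SD, n = 3; 0.32, SE 0.10, limma adjusted p = 0.332), and 0.12 after removal of the length and GC trend. Of 5 tested partner proteins of carriers 3 were above 0 and 2 below, and 0 reached an unadjusted p under 0.05. The smallest p was that of basigin (Bsg), the chaperone that brings monocarboxylate transporters to the surface. It read 773, 787 and 437 FPKM in the controls and 461, 466 and 547 with the mimic (−0.39, SE 0.24, limma adjusted p = 0.499), with control 3 lower than every other library. Without control 3 the difference was −0.67, and once the length and GC trend was removed it was −0.16.

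The symbol rule also took in 4 genes that are no transporters. The scaffolds Slc9a3r1 (0.022, SE 0.28) and Slc9a3r2 (−0.24, SE 0.22), the adaptor Slc4a1ap (−0.0073, SE 0.20; −0.17 without control 3) and Slc7a6os (−0.071, SE 0.12) did not pass with all 6 libraries. In 12 of the 103 members some exon bases are shared with another tested gene, from 1.1% in Slc38a9 to 39.5% in Slc24a5.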

How the data were processed

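Gene expression in 6 libraries (3 mimic, 3 negative control) was taken from 1 table of FPKM values deposited by the authors. The build mm10 and the tools HISAT2, fastp and DESeq2 were used per the submitters' processing notes. Tool versions, counting tool, annotation and strand setting were not given in the sources used here. Symbols, exon lengths, GC content and 3′ untranslated regions came from GENCODE M21 (GRCm38), with 16582 of 16665 identifiers matched. Library depth was read from whole-fragment steps of low values (98.53% to 99.04% of values up to 20 fragments whole within 0.1 fragment).

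All 10166 genes averaging 1 FPKM or more, with all 103 members among them, entered a two-sided limma fit (version 3.58.1, R 4.3.3) of log2(FPKM + 1) that let the variance follow the mean, with Benjamini-Hochberg adjustment over all tested genes and a threshold of 0.05. The script was checked on simulated data. SD is over the FPKM values of 3 libraries and SE is that of the moderated fit. The main fit was unpaired, and the numbers in the titles were used as a block in an alternative fit. Deviations of same-numbered libraries from their group means correlated at 0.287, 0.183 and 0.339 for numbers 1, 2 and 3, all over 0.1. Control 2, however, correlated more with mimic 1 (0.308) than with mimic 2. Deviations also sum to 0 within each group, so these values do not settle which samples form pairs. The trend on length and GC was removed in each library with splines of 4 degrees of freedom. Named genes are the 6 of smallest p in each direction, the 2 of highest mean in each substrate group, those nearest the FPKM threshold, the gene of smallest p in each list of other genes and the 6 most abundant with an 8mer site, and others were named after their values were seen; some genes are not reported here by name. Members, substrate groups and lists were chosen with earlier results of these data known. The assignment to places in the cell is from general knowledge.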

Additional observations from a re-analysis of the deposited data

How the results depend on the processing

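The median over the members kept its sign under every alternative run, from 0.033 without negative control 3 to 0.12 without mimic 3. Members called went from 0 to between 0 and 14 with 1 library left out (14 without negative control 3), and to 43 with library weights, whose gene-by-gene estimate gave negative control 3 a weight of 0.0908; the default estimate of these weights did not converge. The number at an unadjusted p under 0.05 was 9, and 14 with the replicate block, 4 with the length and GC trend removed, 21 with that trend removed and negative control 3 left out, 52 with library weights, and 0 to 27 with 1 library left out (0 without mimic 1 or mimic 2, 1 without negative control 2, 2 without negative control 1, 19 without mimic 3). The voom, weights and combined settings were chosen after seeing the data. The block called 0 members at an adjusted p under 0.05.

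Of 464 alternative values of 29 named members, 410 kept direction and side of the threshold, 28 passed it and 26 changed sign; the cause was not tested. With the length and GC trend removed, signs changed for Slc16a1 (−0.025), Slc27a1 (0.054), Slc2a6 (0.13), Slc31a1 (−0.017), Slc35a4 (0.038), Slc35e4 (0.075), Slc39a9 (−0.068) and Slc6a12 (0.039). With that trend removed and negative control 3 left out they changed for Slc16a1 (−0.018), Slc19a1 (0.065), Slc27a1 (0.11), Slc2a6 (0.052), Slc31a1 (−0.016), Slc35a2 (0.051), Slc35a4 (0.21), Slc35b1 (0.094), Slc35e4 (0.20), Slc39a3 (0.023), Slc39a9 (−0.10), Slc48a1 (0.11) and Slc6a12 (0.097). With 1 library left out, Slc27a1 ran from −0.13 to 0.038, Slc2a6 from −0.30 to 0.066 and Slc43a2 from −0.032 to 0.16.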
